A study of Mus musculus and Rattus norvegicus with 6 samples.

Results

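The genes described here are Myc and 37 genes whose products make ribosomes in the nucleolus, 38 of the 55573 genes in the table. They were taken by symbol from a list of nucleolar ribosomal RNA (rRNA) processing and RNA polymerase I genes drawn up together with Myc, and the rule itself names symbols and no measured value. The list was nevertheless drawn up with earlier results of these data known, so the number of its genes that moved is a description of the list and not independent support. All 38 symbols were found, and all 38 passed the filter on low counts. The list is split here by role into Myc, 4 genes of RNA polymerase I transcription, 4 of the box C/D and 3 of the box H/ACA small nucleolar ribonucleoproteins (snoRNPs), 12 of small subunit assembly, 8 of large subunit assembly and 6 multifunctional nucleolar proteins.

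RNA was sequenced in bulk from mouse SMCs, with 2 libraries of cells that received a control siRNA (siCo) and 2 of cells that received siRNAs against both YAP and TAZ (siYAP/TAZ). The sample labels name the cells MOVAS, a smooth muscle line from mouse aorta, with a wild-type genotype in both groups, whereas the legends of the study call them primary SMCs of the penis. The siRNAs were delivered with Lipofectamine RNAi-MAX, and the sources used here do not say which of the listed mixes was sequenced. A legend of the study gives 2 biologically independent samples for a qRT-PCR check of genes from this experiment, but the sources used here do not say that the sequenced libraries came from separate cultures, so the p-values measure no more than how much these libraries vary, and that variation may be technical. The comparison asks how the transcripts of SMCs differ once YAP and TAZ are depleted.

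Each library held 17192309 to 18751368 counts. Yap1 fell from 22.7 FPKM ± 1.16 (SD, n = 2) in siCo to 1.95 FPKM ± 0.111 (SD, n = 2) in siYAP/TAZ cells, and Wwtr1, which encodes TAZ, fell from 57.8 FPKM ± 1.86 (SD, n = 2) to 17.2 FPKM ± 0.604 (SD, n = 2). FPKM scales the count of a gene by its exonic length and by the sum of all counts. Of 10 smooth muscle markers, Acta2 (138 and 142 FPKM) and Tagln (35.7 and 35.3 FPKM) were well expressed in siCo cells, whereas the contractile markers Myh11 (1.29 and 1.29 FPKM), Cnn1 (1.83 and 2.47 FPKM) and Des (1.19 and 1.18 FPKM) were low and the regulator Myocd was under 0.2 FPKM in every library. Some endothelial and fibroblast markers were present as well, with Cdh5 at 42.7 and 41.7 FPKM and Dcn at 124 and 105 FPKM in siCo cells. The markers named here beyond those of the largest change were chosen after their values were seen.

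Ribosomes are built in the nucleolus. RNA polymerase I copies the rDNA repeats into a long precursor, snoRNPs guide chemical marks and cuts on it, and assembly factors fold and trim it into the RNAs of the small and the large subunit while ribosomal proteins bind. MYC is a transcription factor that dimerises with MAX, binds E-boxes of the sequence CACGTG and is known to raise the expression of many genes of this pathway in growing cells. YAP and TAZ have no DNA-binding domain of their own and act mostly through TEAD factors.

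Promoters of members that hold a MYC-type E-box are shown first, because Myc and many of its classical targets are in the list. The windows are from RefSeq on GRCm38.p6 and run from 250 bases before to 50 bases after the annotated start. Of the 38 members, 32 have such a window. CACGTG, which is its own reverse complement, occurred in 8 of the 32 (25%), namely in Nop2, Ltv1, Tsr1, Mybbp1a, Utp20, Wdr43, Rrn3 and Pes1. It occurred in 8.09% of all 27025 genes with a window and in 11.5% of the 11016 of them that were tested for expression. The 6 of these members with the largest decrease are printed from 60 bases before to 50 bases after the start, 5′ to 3′ on the strand of the gene, with the E-box in capitals.
Nop2, chr6:125131823-125131932, plus strand: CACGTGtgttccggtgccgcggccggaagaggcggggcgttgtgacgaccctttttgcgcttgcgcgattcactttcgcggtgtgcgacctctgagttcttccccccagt
Ltv1, chr10:13193088-13193197, minus strand: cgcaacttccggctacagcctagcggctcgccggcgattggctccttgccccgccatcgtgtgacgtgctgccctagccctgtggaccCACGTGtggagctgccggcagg
Tsr1, chr11:74898020-74898129, plus strand: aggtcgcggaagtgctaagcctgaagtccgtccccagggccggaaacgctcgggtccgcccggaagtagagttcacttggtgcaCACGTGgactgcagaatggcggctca
Mybbp1a, chr11:72441267-72441376, plus strand: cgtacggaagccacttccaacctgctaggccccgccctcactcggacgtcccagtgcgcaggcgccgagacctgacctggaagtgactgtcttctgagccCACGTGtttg
Utp20, chr10:88826765-88826874, minus strand: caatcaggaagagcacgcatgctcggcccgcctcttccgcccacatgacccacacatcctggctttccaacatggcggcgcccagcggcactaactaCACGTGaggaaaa
Wdr43, chr17:71616155-71616264, plus strand: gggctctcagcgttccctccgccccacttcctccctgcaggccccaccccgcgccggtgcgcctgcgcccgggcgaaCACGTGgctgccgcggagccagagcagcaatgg

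Counting the RefSeq start as base 1, the E-box began at base 18 in Wdr43, 25 in Tsr1, 29 in Ltv1, 38 in Utp20 and 41 in Mybbp1a. By these starts, 5 of the 6 printed E-boxes lie just inside the transcribed part, and that of Nop2 begins 60 bases before the start. The bases just after the start were found in GENCODE transcripts of the same gene for 3 of the 6, so the positions depend on the annotation. The Wdr43 stretch lies wholly inside its gene as counted, which starts at 71615895. The median log2 fold change was -0.86 for the 8 members with the E-box and -0.74 for the 24 without it. The TEAD core GGAATG, searched on both strands, occurred in 3 of the 32 members, Polr1b, Rrn3 and Ubtf, or 9.38%, against 16.6% of all genes with a window and 14.7% of those tested. These matches describe the letters in the windows and were not tested. Motifs outside the windows were not searched, so the shares do not show whether MYC or TEAD factors act on these genes from elsewhere. 

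All 38 members were lower in siYAP/TAZ than in siCo cells, and none was higher. In edgeR's quasi-likelihood test with Benjamini-Hochberg adjustment over 15479 genes, each of the 38 passed the adjusted threshold of 0.05, the largest adjusted p being 0.000225 for Ubtf. The members were chosen with earlier results known, so this count carries no weight of its own. Of all genes tested, 27.7% passed this threshold as lower and 27.6% as higher, and of the 7967 with a mean of at least 5 FPKM, 36.7% passed as lower. The median log2 fold change of the members was -0.78, and that of all genes tested was -0.00033 with quartiles of -0.31 and 0.35. In every member both siYAP/TAZ libraries lay below both siCo libraries, a pattern held by 42.2% of all genes tested. The members' levels in siYAP/TAZ cells were between 42.6% (Nop58) and 82.8% (Ubtf) of those in siCo cells.

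**Figure D1:**
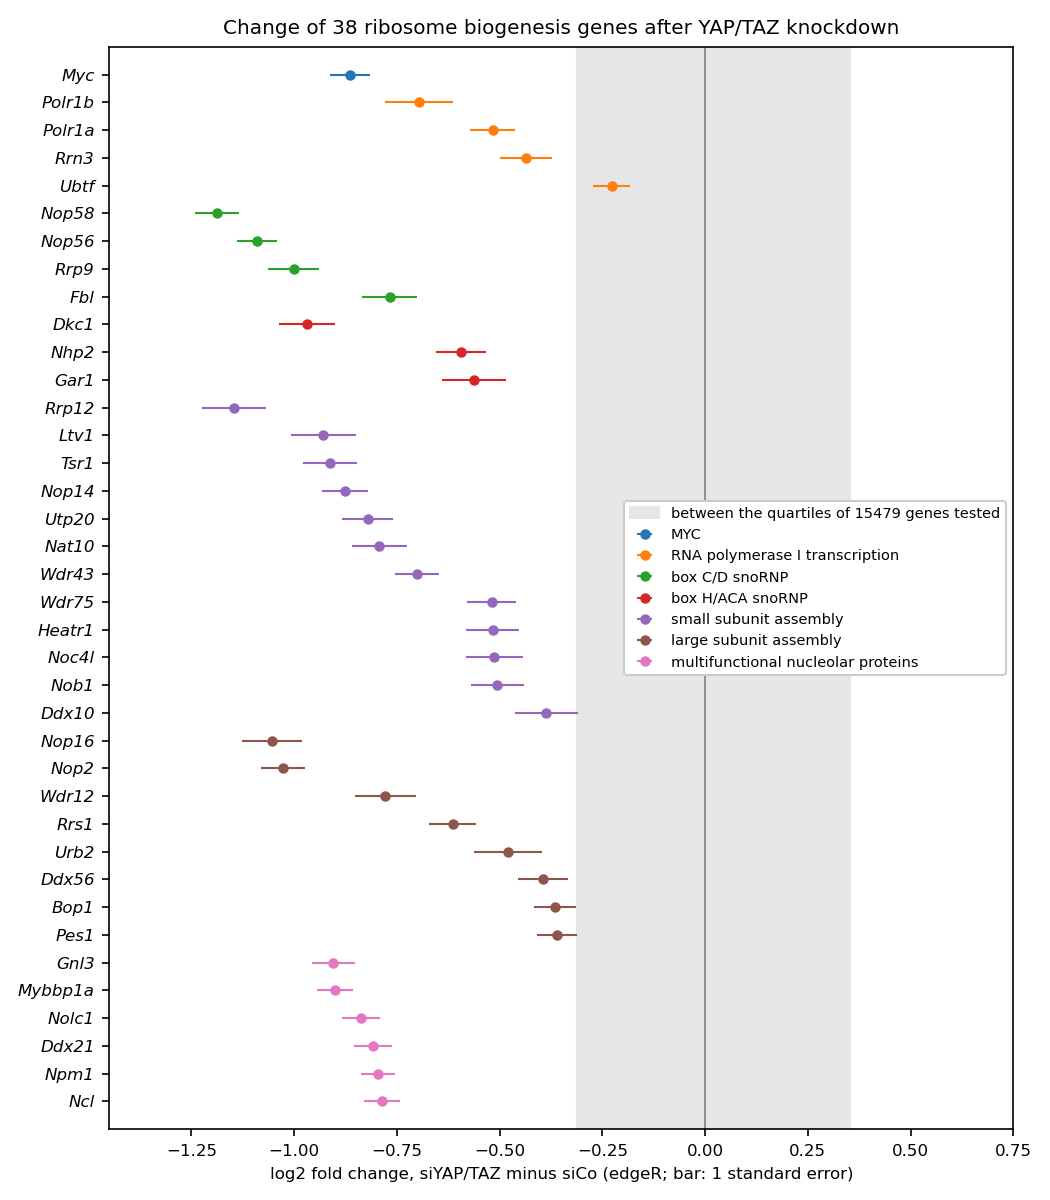
The horizontal axis gives the log2 fold change of each of the 38 genes, siYAP/TAZ minus siCo, with a bar of 1 standard error on each side, coloured by role, and the grey band spans the quartiles of all genes tested (-0.31 to 0.35). Every gene lies left of 0, from Nop58 at -1.19 to Ubtf at -0.23, and Ubtf alone has its point inside the band.

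The decreases were of moderate size. There were 6 members with a log2 fold change of -1 or less, while 25 lay between -1 and -0.5, and 7 were above -0.5. Of all genes tested, 3.15% were called with a change of -1 or less and 11.9% with one of -0.5 or less. The FPKM values of the 38 members added up to 1251.52 and 1285.63 in the siCo libraries and to 731.29 and 739.99 in the siYAP/TAZ libraries. Npm1 made up 19.7% of that sum in siCo replicate 1 and 18.8% in siYAP/TAZ replicate 1. FPKM is relative to the total RNA of each library and no spike-in is described, so fewer transcripts per cell and a change in the rest of the RNA, or in the share of a cell type, cannot be told apart in these bulk libraries.

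**Figure D2:**
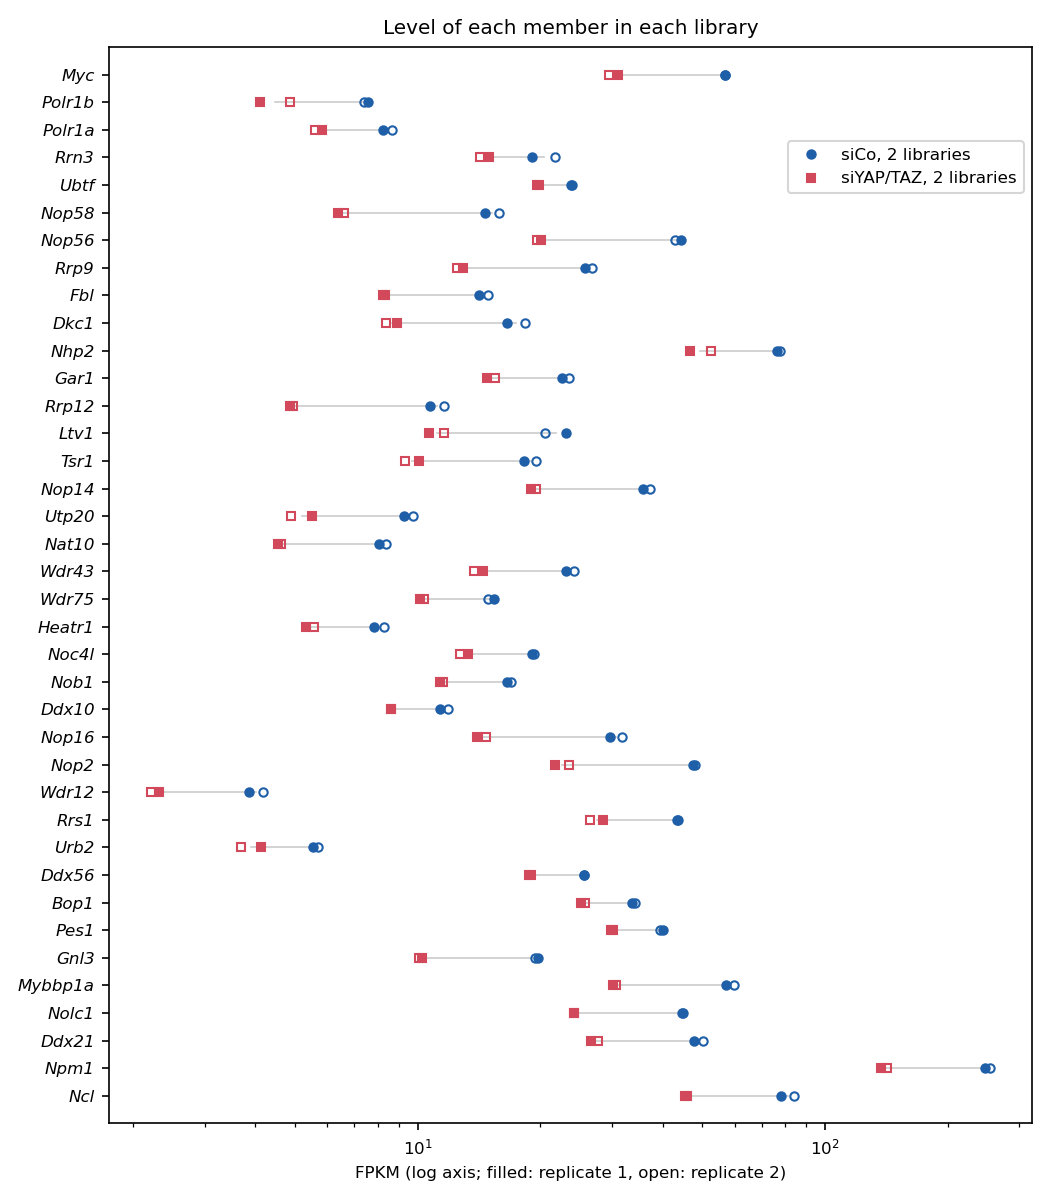
The horizontal axis, on a log scale, gives the FPKM of each member in each of the 4 libraries, circles for siCo and squares for siYAP/TAZ, filled for replicate 1 and open for replicate 2, with a grey line between the group means. Levels run from Wdr12, at 3.85 and 4.18 FPKM in siCo, to Npm1, at 247 and 254 FPKM, and for all 38 genes both squares lie left of both circles.

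Myc itself, at chr15:61985391-61990374 on the plus strand of mm10, was at 56.7 and 56.8 FPKM in the siCo libraries and at 31.0 and 29.5 FPKM in the siYAP/TAZ libraries. The groups did not overlap, and the siCo libraries differed from each other by far less than from either siYAP/TAZ library. Its log2 fold change was -0.86 (standard error 0.0490, adjusted p = 2.76e-12, edgeR), a level of 53.3% of siCo, close to the median of the whole list.

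The partners and competitors of MYC moved differently. MAX is needed by MYC to bind DNA, and the MXD proteins, MXI1 and MNT form dimers with MAX that repress at E-boxes. MLX pairs with some of the MXD proteins and with MLXIP. Of 12 genes of this network other than Myc, 8 were higher and 2 were lower, with a median log2 fold change of 0.57. Of all genes tested, 27.6% were higher and 27.7% lower. The higher genes numbered 7 in DESeq2, when scaled by library totals and with no filter beyond 1 count. They also numbered 7 in limma on log2(FPKM + 1) and log2(FPKM + 0.1). A filter of 5 FPKM left 7 genes of the network, of which 5 were higher. Mxd4 was at 8.91 and 9.58 FPKM in siCo and at 17.5 and 18.1 FPKM in siYAP/TAZ cells, or 0.99 on the log2 scale (standard error 0.0516). Mxi1 was at 3.07 and 3.29 FPKM against 5.16 and 5.27 FPKM (log2 fold change 0.76). Mlx was at 16.6 and 15.6 FPKM against 24.5 and 24.6 FPKM (0.65). All 3 were higher in both siYAP/TAZ libraries than in either siCo library. Mnt rose by 0.48 on the same scale, from 9.19 and 8.65 to 12.3 and 11.8 FPKM. Max differed by little, with 32.8 and 32.6 FPKM in siCo and 34.3 and 34.8 FPKM in siYAP/TAZ cells (log2 fold change 0.12, adjusted p = 0.0312), and its call was lost in DESeq2, with library totals and in other alternatives, where the adjusted p of all alternatives ran from 0.00599 to 0.159.

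Max and the following genes of the network were chosen after their values were seen. Mxd1 (0.83) and Mlxip (0.34) were higher, and Mxd3 (-0.25, adjusted p = 0.0996) did not pass the threshold. The 2 lower genes were Mga (-0.16), a large MAX partner, and Mycl (-1.08), which was under 1 FPKM in every library, as were Mlxipl (2.64, higher) and Mycn (0.96, not past the threshold). Both lower calls were lost without siCo replicate 2, where the log2 fold changes were -0.10 for Mga and -0.66 for Mycl, and without siYAP/TAZ replicate 1, where they were -0.16 and -0.80, so that 0 genes of the network were lower. Without siYAP/TAZ replicate 2, 1 was (Mycl, -1.39). These fits leave 1 library in a group and take the spread from the other group, and every fold kept its sign.

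**Figure D3:**
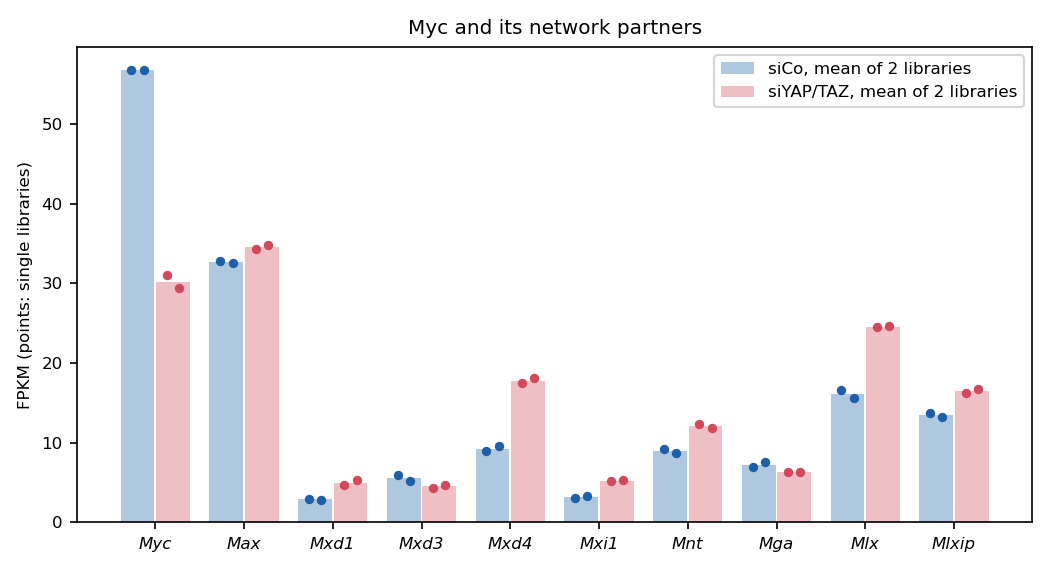
Bars give the mean FPKM of 2 libraries per group for Myc and 9 genes of its network, with a point for each library, and Mycl, Mycn and Mlxipl, all under 1 FPKM, are left out. Myc is the only gene of these 10 with a fall of this size (56.7 and 56.8 to 31.0 and 29.5 FPKM), while Mxd4 rises from 8.91 and 9.58 to 17.5 and 18.1 FPKM and Max lies between 32.6 and 34.8 FPKM in all libraries.

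The RNA polymerase I group fell the least, with a median log2 fold change of -0.48 over its 4 genes. Polr1a and Polr1b encode the largest subunits of the enzyme, UBTF shapes the chromatin of the rDNA and helps recruit the polymerase, and RRN3 links the polymerase to its promoter factors. Polr1b was at 7.56 and 7.38 FPKM in siCo and at 4.10 and 4.86 FPKM in siYAP/TAZ cells, a log2 fold change of -0.70 (standard error 0.0828). Polr1a went from 8.22 and 8.67 FPKM to 5.83 and 5.61 FPKM (log2 fold change -0.52). Rrn3 went from 19.1 and 21.7 FPKM to 15.0 and 14.2 FPKM (-0.44). In each of these the groups were clear of each other, although the siYAP/TAZ libraries of Polr1b differed by 17.02%, the most of any member. Ubtf, at chr11:102304560-102319742 on the minus strand, had the smallest decrease of all members, from 24.0 and 23.7 FPKM to 19.9 and 19.6 FPKM, a log2 fold change of -0.23 (standard error 0.0457).

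The box C/D genes fell the most as a group, with a median log2 fold change of -1.05. The box C/D particle places methyl groups on the sugars of rRNA: fibrillarin (Fbl) is the methyltransferase, NOP56 and NOP58 are its scaffold, and RRP9 belongs to the box C/D particle that assists the early cuts of the precursor. Nop58, at chr1:59684971-59719044 on the plus strand, was at 14.6 and 15.8 FPKM in siCo and at 6.37 and 6.61 FPKM in siYAP/TAZ cells. This was the largest decrease of the list, 2.28-fold or -1.19 on the log2 scale (standard error 0.0533, adjusted p = 6.69e-14, edgeR). Nop56 went from 44.3 and 42.9 FPKM to 20.1 and 19.6 FPKM (log2 fold change -1.09). Rrp9 went from 25.7 and 26.9 FPKM to 12.9 and 12.5 FPKM, or 48.4% of siCo. Fbl, the enzyme of the particle, fell less, from 14.2 and 14.9 FPKM to 8.31 and 8.24 FPKM (-0.77). Libraries of a group were close together for all 4 genes.

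The box H/ACA particle converts uridines of rRNA to pseudouridine, with dyskerin (Dkc1) as the enzyme and NHP2 and GAR1 as core proteins. Dkc1 was at 16.6 and 18.3 FPKM in siCo and at 8.90 and 8.38 FPKM in siYAP/TAZ cells, a log2 fold change of -0.97 (standard error 0.0683). Nhp2 went from 76.4 and 77.5 FPKM to 46.5 and 52.4 FPKM (-0.59), and Gar1 from 22.6 and 23.5 FPKM to 14.8 and 15.5 FPKM (-0.56). By these estimates the order was the reverse of the box C/D particle, the gene of the enzyme having the larger decrease. The ratio of Dkc1 to Nhp2 counts differed by -0.37 with a wide interval (-0.99 to 0.24), so the order of these genes is uncertain. Exons of both also overlap a gene on the other strand. The remaining core proteins of the 2 particles, which are not members and were chosen after their values were seen, were lower as well: Snu13 of box C/D by a log2 fold change of -0.68 and Nop10 of box H/ACA by one of -0.20 (adjusted p = 0.0191).

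The 12 genes of small subunit assembly had a median log2 fold change of -0.75. The 5 largest decreases were those of Rrp12, Ltv1, Tsr1, Nop14 and Utp20. Rrp12, which acts in the maturation and export of pre-ribosomes, was at 10.7 and 11.6 FPKM in siCo and at 4.87 and 4.93 FPKM in siYAP/TAZ cells (log2 fold change -1.15, standard error 0.0782). Ltv1 and Tsr1, both factors of the late small subunit precursor, had log2 fold changes of -0.93 and -0.91. Ltv1 went from 23.1 and 20.6 FPKM to 10.7 and 11.6 FPKM, and Tsr1 from 18.2 and 19.5 FPKM to 10.1 and 9.29 FPKM. Nop14, a scaffold protein of the processome that assembles on the new precursor, went from 35.7 and 37.2 FPKM to 19.01 and 19.5 FPKM (-0.88), and its partner Noc4l fell less, from 19.1 and 19.3 FPKM to 13.3 and 12.7 FPKM (-0.51). Utp20, a very large processome protein, had -0.82, and Nat10, which acetylates cytidines of the small subunit rRNA, had -0.79.

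Heatr1, Wdr43 and Wdr75 belong to the subcomplex of the processome that in human cells is also linked to rDNA transcription. Wdr43 went from 23.1 and 24.2 FPKM to 14.4 and 13.8 FPKM (log2 fold change -0.70), whereas Heatr1 and Wdr75 both had a log2 fold change of -0.52. Nob1, the nuclease that makes the last cut of the small subunit rRNA, had -0.51. The RNA helicase gene Ddx10 was at 11.3 and 11.9 FPKM against 8.61 and 8.63 FPKM, the smallest decrease of the group (-0.39, adjusted p = 0.00022, edgeR). Late factors such as Ltv1 and early factors such as Nop14 were both among the larger decreases.

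Large subunit assembly held both some of the largest and some of the smallest decreases, with a median log2 fold change of -0.55 over 8 genes. Nop16 was at 29.7 and 31.8 FPKM in siCo and at 14.0 and 14.7 FPKM in siYAP/TAZ cells (log2 fold change -1.05, standard error 0.0726). Nop2, a methyltransferase of the large subunit rRNA whose promoter is printed above, went from 47.3 and 48.0 FPKM to 21.8 and 23.5 FPKM (-1.03, standard error 0.0535). Rrs1, needed to bring the small rRNA made by RNA polymerase III into the large subunit precursor, went from 43.3 and 43.6 FPKM to 28.5 and 26.5 FPKM (-0.61). Urb2 (-0.48) and the helicase gene Ddx56 (-0.40) lay below the group's median in size. PES1, BOP1 and WDR12 form the PeBoW complex, which acts in the processing of the large subunit rRNA. Wdr12 was the lowest member by level, at 3.85 and 4.18 FPKM against 2.32 and 2.22 FPKM (-0.78), whereas Bop1, at 33.6 and 34.2 against 25.2 and 25.8 FPKM (-0.37), and Pes1, at 40.0 and 39.5 against 29.9 and 30.2 FPKM (-0.36), were the genes with the smallest decreases apart from Ubtf.

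The 6 multifunctional nucleolar proteins had the narrowest range, with log2 fold changes from -0.91 to -0.79. Gnl3 encodes nucleostemin, a GTP-binding protein of proliferating cells, and went from 19.8 and 19.4 FPKM to 10.3 and 10.1 FPKM (log2 fold change -0.91). Mybbp1a, a nucleolar regulator of transcription, went from 57.2 and 60.0 FPKM to 30.2 and 30.7 FPKM (-0.90), and Nolc1, a chaperone of snoRNPs, from 44.7 and 44.5 FPKM to 24.2 and 24.2 FPKM (-0.84). The RNA helicase gene Ddx21 had -0.81. The most abundant members were also in this group: Npm1, which encodes the structural protein nucleophosmin, was at 247 and 254 FPKM in siCo and at 138 and 142 FPKM in siYAP/TAZ cells (-0.80, standard error 0.0417), and Ncl, which encodes nucleolin, was at 78.2 and 84.1 FPKM against 45.9 and 45.3 FPKM (-0.79, standard error 0.0434).

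Members of 1 complex did not all fall alike. For 12 pairs of members the log2 ratio of their counts was taken within each library, which leaves out the scaling between libraries. Of these, 11 were pairs of a shared particle or enzyme, and the pair of Nop58 with Ubtf was taken because they have the largest and the smallest decrease, so its difference is a description. All pairs were chosen after the values were seen, so the other differences and their intervals are descriptions too. Several pairs share Fbl or Wdr12 and are not independent. The ratio of Nop58 to Fbl was 1.40 and 1.44 in siCo and 0.97 and 1.04 in siYAP/TAZ cells, a difference of -0.42 (95% interval -0.59 to -0.25). The ratio of Rrp9 to Fbl differed by -0.23 (-0.31 to -0.16) and that of Nop56 to Fbl by -0.32 (-0.59 to -0.06). The scaffold genes thus fell further than Fbl in the same libraries, while Nop58 against Nop56 gave -0.10 with an interval that spans 0 (-0.49 to 0.30). Dkc1 fell further than Gar1 (-0.41, interval -0.78 to -0.04), and against Nhp2 the interval was wide (-0.37, from -0.99 to 0.24). Wdr12 fell further than Bop1 (-0.41, interval -0.69 to -0.13) and Pes1 (-0.42, interval -0.76 to -0.07), and the ratio of Bop1 to Pes1 moved by -0.01 with the narrow interval of -0.11 to 0.10. Polr1b against Polr1a gave -0.18 (-0.87 to 0.51). Of the 11 pairs of a shared complex, 6 have an interval that leaves out 0. Exons of Nop56, Rrp9, Dkc1, Nhp2, Wdr12, Bop1, Pes1 and Polr1a overlap a gene on the other strand. Their counts may hold reads of that neighbour, so ratios with them may not reflect the named genes alone. Of these 6 pairs, only Nop58 with Fbl holds none of them. The intervals rest on 2 residual degrees of freedom and are not adjusted for the number of pairs, and the two-sided exact permutation test of 2 against 2 libraries cannot give a p below 0.333.

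**Figure D4:**
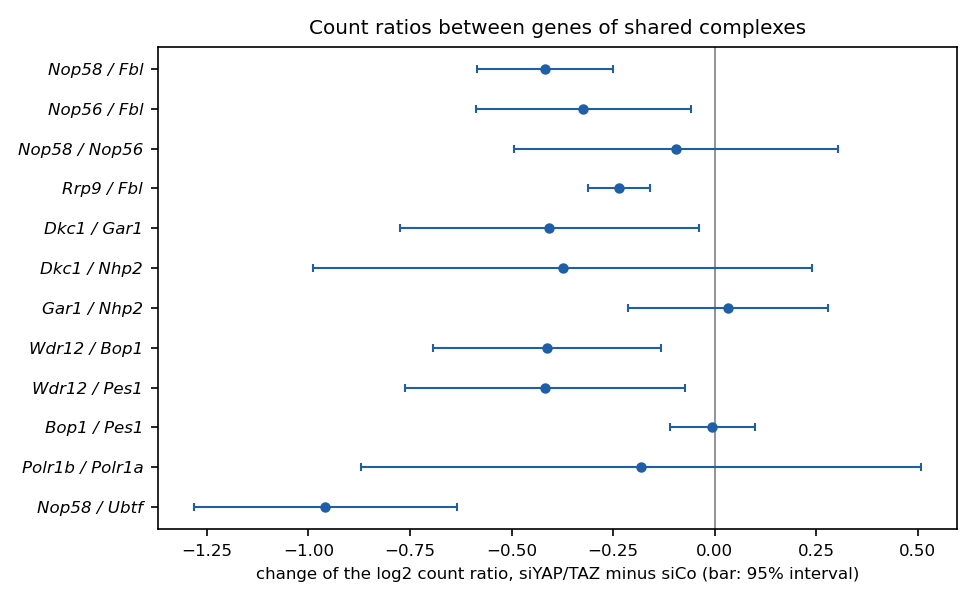
Each point is the difference between siYAP/TAZ and siCo cells in the log2 ratio of the counts of 2 genes of the same library, with its 95% interval as a bar. Ratios to Fbl lie below 0 (-0.42 for Nop58, -0.32 for Nop56, -0.23 for Rrp9), the ratios of Wdr12 to Bop1 and Pes1 lie near -0.4, and Bop1 to Pes1 lies at -0.01.

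Genes of the same steps that are not members were counted next. Of 45 other genes of small subunit assembly, 36 were lower and 0 were higher, with a median log2 fold change of -0.46. Pno1, which docks the nuclease NOB1, was at 46.6 and 52.2 FPKM against 23.9 and 27.4 FPKM (-0.90), and Krr1, Wdr3 and Nol10, all factors of the processome, had -0.81, -0.79 and -0.77. Of 48 other genes of large subunit assembly, 42 were lower and 1 was higher, with a median of -0.57. Noc2l was at 40.2 and 41.7 FPKM against 20.2 and 21.001 FPKM (-0.95), and Lyar (-0.94), Nifk (-0.93) and Rpf2 (-0.93) followed. The higher gene was the helicase gene Ddx24 (0.16), and without siCo replicate 2 there were 2 higher genes. The RNA exosome, which trims and degrades the spacers of the precursor from the 3′ end, had 10 of 13 tested genes lower and 0 higher (median -0.49), led by the nuclease gene Dis3 with 7.49 and 8.32 FPKM against 3.69 and 3.72 FPKM (-1.05), Exosc1 (-1.03), Exosc2 (-0.98) and Exosc8 (-0.69). Of all genes tested, 27.7% were lower, and of those with a mean of at least 5 FPKM, 36.7% were. All lists of related genes in this report were, like the members, chosen with earlier results of these data known. Their counts are therefore descriptions of the lists and not independent support.

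Of 17 other genes of RNA polymerase I, 10 were lower and 1 was higher, with a median log2 fold change of -0.25. Over all genes tested, 27.7% were lower and 27.6% higher. Tcof1, which encodes treacle, a nucleolar partner of UBTF and the polymerase, was at 20.05 and 19.8 FPKM in siCo and at 9.12 and 9.36 FPKM in siYAP/TAZ cells (-1.06, standard error 0.0552). Twistnb (-0.83) and Cd3eap (-0.76), which encode subunits of the enzyme, and Taf1a (-0.64), a subunit of its promoter selectivity factor, followed. The higher gene was Polr1c (0.23), whose product is shared with RNA polymerase III, and it did not pass without siYAP/TAZ replicate 2, where 0 genes of the list were higher. The list holds subunits shared with the other polymerases.

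The cytosolic ribosomal proteins, which are the parts that the members assemble, showed a smaller difference. Of 79 genes, 28 were lower (35.4%) and 6 were higher (7.59%), with a median log2 fold change of -0.07. The shares over all genes tested were 27.7% lower and 27.6% higher. Ribosomal protein genes are mostly well expressed, and the 5 FPKM filter kept 75 of the 79. Among tested genes averaging 5 FPKM or more, 36.7% were lower. Against that share, lower genes were not in excess among the ribosomal proteins. Split at a mean of 100 FPKM, a limit chosen after seeing the data, the 42 genes above it had 8 lower, 5 higher and a median of 0.01, and the 37 below it had 20 lower, 1 higher and a median of -0.21. The 4 largest changes were all below that limit: Rpl12 (17.9 and 16.8 against 10.1 and 9.13 FPKM, -0.80), Rpl28 (-0.72), Rps23 (-0.70) and Rpl10a (-0.64). Only uniquely mapped reads were counted and many of these genes have near-identical processed pseudogenes, so the levels of those with few counts are uncertain. Without siCo replicate 1 there were 13 higher genes in place of 6, and scaling by library totals gave 39 lower and 4 higher genes, so the direction of the small changes is uncertain.

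Translation initiation and elongation factors were lower in 29 of 38 cases and higher in 4, against 27.7% and 27.6% of all genes tested, with a median log2 fold change of -0.34. Eif2b3, a subunit of the exchange factor of EIF2, was at 6.67 and 7.40 FPKM against 3.62 and 4.12 FPKM (-0.82), Eif2s3x, a subunit of EIF2, had -0.68, Eif1, which guards start codon choice, went from 121 and 121 to 76.9 and 74.1 FPKM (-0.64), and Eif3j1 had -0.62.

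Known MYC targets that work outside the nucleolus were mostly lower too, 29 of 33 tested genes (87.9%) with 2 higher, where 27.7% of all genes tested and 36.7% of those of at least 5 FPKM were lower. Their median log2 fold change was -0.58. Tfrc, the transferrin receptor that brings iron into cells, was at 23.2 and 23.5 FPKM in siCo and at 5.81 and 5.37 FPKM in siYAP/TAZ cells, which is -2.02 on the log2 scale (standard error 0.0573) and larger than that of any member. Ctps, which makes CTP, went from 46.1 and 44.6 FPKM to 17.02 and 17.6 FPKM (-1.35), Slc7a5, an importer of large neutral amino acids, from 39.5 and 39.9 FPKM to 16.6 and 16.5 FPKM (-1.22), and Srm, spermidine synthase, from 96.7 and 101 FPKM to 43.3 and 41.0 FPKM (-1.18). In the following genes, chosen after their values were seen, the list did not move as a block. Odc1, the ornithine decarboxylase that acts before Srm in polyamine synthesis and a classical MYC target, was at 304 and 320 FPKM in siCo and at 322 and 341 FPKM in siYAP/TAZ cells (0.13, adjusted p = 0.0128). Ccnd2, a cyclin, was at 53.1 and 53.9 FPKM against 59.7 and 61.8 FPKM (0.23). Ldha, lactate dehydrogenase, was at 438 and 419 FPKM against 401 and 395 FPKM (-0.06) and did not pass the threshold (adjusted p = 0.199), nor did Tfam (-0.15). Without siYAP/TAZ replicate 2, or when scaled by library totals, 1 gene of this list was higher.

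**Figure D5:**
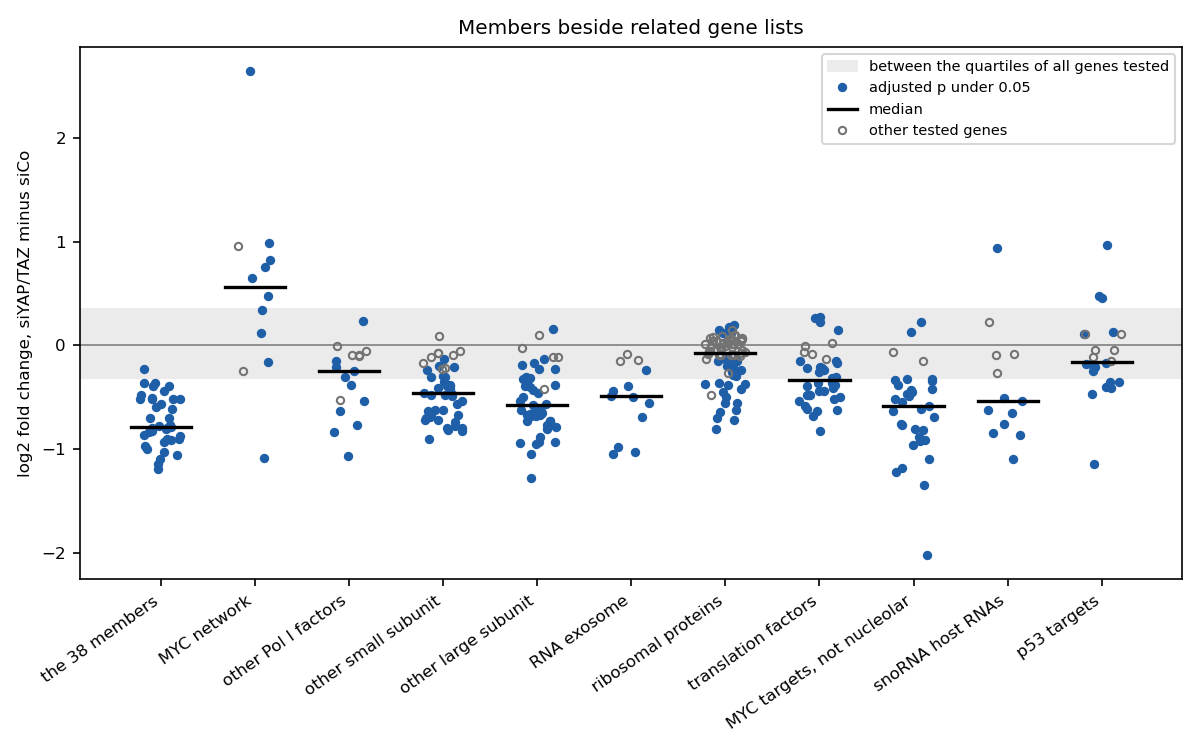
Each point is the log2 fold change of a gene, siYAP/TAZ minus siCo, filled where its adjusted p is under 0.05 and open otherwise, for the 38 members and 10 related lists, with black lines for the medians and a grey band for the quartiles of all genes tested. The medians of the members (-0.78), the other assembly factors (-0.46 and -0.57) and the non-nucleolar MYC targets (-0.58) lie below the band, that of the ribosomal proteins (-0.07) lies near 0 and that of the MYC network (0.57) lies above the band.

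Some members carry a second kind of RNA in their introns. By the GENCODE annotation, 7 members (Nop58, Ncl, Nop56, Tsr1, Gnl3, Wdr43 and Dkc1) host 21 snoRNA genes. Of these, 13 had no count in any library and the highest count was 9, so a change of the snoRNAs was not detectable at this depth. Host RNAs that serve mainly as snoRNA carriers were measured better. Of 13 tested, 8 were lower and 1 was higher, with a median log2 fold change of -0.54. Of all genes tested, 27.7% were lower and 27.6% higher. Snhg1 was at 17.5 and 16.7 FPKM against 7.99 and 7.54 FPKM (-1.09), Snhg15 (-0.86) and Snhg5 (-0.85) were lower as well, and Snhg18 was higher, at 4.79 and 3.62 against 7.61 and 8.06 FPKM (0.94). 

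Other features of the libraries moved with the groups. The first principal component of log2 CPM took 82.0% of the variance. The marker counts that follow stand against 27.7% of all genes tested that were lower and 27.6% that were higher. Of 10 smooth muscle markers, 6 were lower and 1 was higher. Their summed level was 214 and 218 FPKM in siCo and 111 and 107 FPKM in siYAP/TAZ cells, most of it Acta2 and Tagln. All 8 fibroblast markers were higher, with summed levels of 376 and 305 against 509 and 473 FPKM. Of 8 endothelial markers, 5 were higher and 2 lower, with sums of 102 and 101 against 119 and 124 FPKM. Macrophage markers summed to 8.40 and 8.68 against 11.5 and 14.6 FPKM, nearly all of it Cd68, with 2 of 3 tested higher and Adgre1, Tyrobp and the C1q genes at 0 counts in all libraries. Epithelial markers summed to 5.95 and 7.39 against 16.9 and 15.4 FPKM, nearly all of it Krt8 and Krt18, with 2 of 4 tested higher. The part of these differences in the decrease of the members was not tested. Exons of 15 of the 38 members overlap a gene on the other strand, and the sources used here give no strand setting for the counting, so the counts of these 15 may hold reads of the neighbour. All 38 members were lower, so the 23 without such an overlap had to be lower as well. The part of neighbour reads in the changes of the 15 was not tested.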

How the data were processed

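Bulk RNA-seq of mouse SMCs (2 siCo and 2 siYAP/TAZ libraries) was used, and 2 rat samples of single nuclei were not used here. Per the labels, reads were processed with Trimmomatic and HISAT2 and aligned to mm10, with no versions. The methods describe counting of uniquely mapped reads per Ensembl gene. The values deposited by the authors are raw counts, with FPKM that divide each count by the exonic length and the library total. That formula gave the deposited FPKM of both siCo libraries for 55573 of 55573 genes (tolerance 0.0051), and it was used for all 4 libraries. The 2 deposited FPKM columns of siYAP/TAZ libraries that match no single sample were set aside. The table has 55630 rows, of which 57 without a gene name or a count were dropped. Column names give the group of the siYAP/TAZ libraries but not the sample, so their replicate numbers are names only.

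The counts were scaled by TMM, filtered with filterByExpr and tested by the quasi-likelihood test of edgeR 4.0.16 (R 4.3.3; Benjamini-Hochberg over 15479 genes, threshold 0.05, 18.6 prior and 2 residual degrees of freedom), and "lower" or "higher" means past that threshold. The fit was also run on simulated counts in which few genes were changed, unlike in these data, so that run does not give its error rate here. Chi-square per gene between the libraries of a group was 3.34 (siCo) and 1.995 (siYAP/TAZ), above sampling noise, and none was treated as a duplicate. The members and lists were chosen with earlier results of these data known. Genes named are all members, Yap1, Wwtr1, and from each list up to 4 with the largest change among those past the threshold that reach 5 FPKM in either group. Other genes were chosen after their values were seen, among them Ddx24 and Polr1c, the single higher genes of their lists. Motifs were searched in RefSeq promoter windows on GRCm38.p6, and all 38 members have the same coordinates in GENCODE M21. Alternatives were DESeq2 1.42.0, other scalings and filters, limma 3.58.1 on log2(FPKM + 1) and log2(FPKM + 0.1), the replicate block, and each library left out in turn. The count ratios, the split of the ribosomal proteins and the motif share of tested genes were added after seeing the data.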

Additional observations from a re-analysis of the deposited data

How the results depend on the processing

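Over 12 alternatives, 754 values were compared with those of the report, and 0 were reversed. Counts of genes were taken as kept within 1.5 times and the median of the members within 0.0254 (SD between libraries, log2), and single genes by direction and call, by which 722 values were kept and 32 moved. Counts inside that limit still varied: DESeq2 called 3287 genes lower and 3295 higher, and without single libraries 3433 to 4187 were lower. All 38 members were called lower in each alternative that tested them, the exceptions being Wdr12 and Urb2, which a filter of 5 FPKM removes (36 of 36 called). The largest adjusted p of a member over all alternatives was 0.0114 (Ubtf without siYAP/TAZ replicate 2). Scaling moved the median of all genes by at most 0.0445. The median of the members was -0.83 with library totals, -0.73 on log2(FPKM + 1) and -0.81 on log2(FPKM + 0.1), and ran from -0.82 to -0.73 without single libraries. With the 5 FPKM filter, which leaves 7971 genes, 2730 were lower and 2702 higher. Small counts within lists moved. Lower genes of the MYC network numbered 1 in DESeq2, on log2(FPKM + 1) and with the 5 FPKM filter (where 5 were higher), and 0 to 1 without single libraries other than siCo replicate 1. Higher genes numbered 2 with the 5 FPKM filter, 0 on both log2(FPKM) scales and 1 to 2 without single libraries for large subunit factors, 12, 3 and 4 to 13 for ribosomal proteins, 1 with library totals, on both scales and without siYAP/TAZ replicate 2 for MYC targets, and 3 in the same settings and without either siYAP/TAZ replicate for p53 targets. Higher RNA polymerase I genes numbered 0 to 1 without single libraries. The same-numbered libraries did not deviate together (correlation 0.00774), so the numbers were not taken as pairs, and the fit with a replicate block called 38 of 38 members. Fits without a library leave 1 sample in a group, which is assumed to vary like the other group. Precision is limited by the 2 libraries per group.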

Other observations

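Genes induced by p53, which nucleolar stress is known to activate through free ribosomal proteins, were called in both directions. Whether p53 was active, or could respond, in these cells was not tested. Of 22 genes, 11 were lower (50%) and 5 were higher (22.7%), against 27.7% and 27.6% of all genes tested, with a median log2 fold change of -0.16. Plk2, a kinase gene, was at 73.1 and 82.1 FPKM in siCo and at 34.0 and 34.4 FPKM in siYAP/TAZ cells (-1.14), and Tnfrsf10b, a death receptor gene, had -0.47. Trp53inp1 was at 21.4 and 21.8 against 28.2 and 30.0 FPKM (0.47). Cdkn2a, which stands in the list but encodes regulators of the p53 and RB pathways rather than a classical target, was at 34.5 and 36.3 against 65.3 and 69.3 FPKM (0.97). The central targets Cdkn1a (199 and 206 against 215 and 215 FPKM, 0.13) and Mdm2 (97.3 and 102 against 85.5 and 85.4 FPKM, -0.18), chosen after their values were seen, moved little and in opposite directions. Without siYAP/TAZ replicate 1 or 2, 3 genes of the list were higher, and scaling by library totals gave 12 lower and 3 higher genes.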
